A study of Mus musculus with 12 samples.

Results

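The 6 Sox transcription factor genes described here are Sox4, Sox6, Sox7, Sox9, Sox17 and Sox18, 6 of the 13552 genes in the expression table, and all 6 passed the filter on low values. They were chosen by name with earlier results of these data known, and the value that drew attention to them was the low level of Sox4 in knock-in hearts after pressure overload compared with wild-type hearts after the same surgery. That contrast is therefore given as a description without a test.

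SOX proteins are transcription factors that share one DNA-binding domain, the HMG box, which binds the minor groove and bends the DNA. The family is divided into groups by the similarity of that domain. SOX7, SOX17 and SOX18 form the SOXF group, which acts in endothelial cells during the formation of arteries, veins and lymphatic vessels. SOX4 belongs to the SOXC group, which promotes survival and differentiation of progenitor cells and is needed for the outflow tract and valves of the embryonic heart. SOX9 belongs to the SOXE group and drives cartilage matrix production and acts in the development of heart valves. SOX6 belongs to the SOXD group, lacks an activation domain of its own and represses slow-fibre genes in skeletal muscle.

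RNA was read from 12 mouse hearts in 4 groups of 3, all collected 9 hours after surgery. Wild-type (WT) mice or mice carrying the Bcl-xL S14A knock-in (KI), in which the serine of this anti-apoptotic protein that is phosphorylated early in pressure overload is replaced by alanine, underwent transverse aortic constriction (TAC), a ligature that narrows the aorta and loads the left ventricle, or a sham operation without the ligature. All groups are labelled C57BL/6, and the labels name no drug treatment. By the methods all operated mice received anaesthetics and a slow-release opioid for pain. By the methods of the study the knock-in was made in embryonic stem cells, its selection cassette was removed with a ubiquitous Cre, and the line was backcrossed. The mice of the study were young adult males, and WT mice were bought in. The labels give neither age nor sex. The allele is present in every cell, so that a difference in whole-heart RNA is not tied to 1 cell type. In whole-heart RNA, fewer cells of a type and less RNA per cell cannot be told apart. A single-residue change is not visible in a table of gene levels.

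The hearts held between 23650191 and 32455166 reads on genes. All 8 endothelial and all 6 cardiomyocyte markers were in the table, whereas none of the 4 atrial markers was (Myl7, Sln, Myl4 and Bmp10). Summed endothelial marker levels were alike in the 4 groups, at 300 to 327 RPKM in WT sham hearts, 295 to 328 in WT TAC, 300 to 343 in KI sham and 296 to 327 in KI TAC. A sum can hide opposite moves: with TAC in KI hearts 4 of the 8 markers were higher and 4 lower on average. RPKM divides reads by gene length and library size, so levels can be compared between genes. Summed fibroblast markers, all 7 in the table, ran from 122 to 197 RPKM in WT sham, from 147 to 760 in WT TAC, from 148 to 256 in KI sham and from 101 to 183 in KI TAC hearts.

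The coding sequence of the HMG box shows why the 6 genes are grouped and how the groups differ. The first 60 bases from the conserved start of the box are given for each gene, from GENCODE M21 on GRCm38, with capitals for the 26 bases that all 6 members share.
Sox7: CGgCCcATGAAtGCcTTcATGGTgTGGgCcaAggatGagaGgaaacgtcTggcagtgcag
Sox17: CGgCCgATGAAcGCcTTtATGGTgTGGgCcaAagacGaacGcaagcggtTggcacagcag
Sox18: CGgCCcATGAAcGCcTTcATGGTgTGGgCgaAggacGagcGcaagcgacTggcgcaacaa
Sox4: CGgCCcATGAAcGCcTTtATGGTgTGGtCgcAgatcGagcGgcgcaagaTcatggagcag
Sox9: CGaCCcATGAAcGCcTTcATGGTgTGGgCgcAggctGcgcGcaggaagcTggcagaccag
Sox6: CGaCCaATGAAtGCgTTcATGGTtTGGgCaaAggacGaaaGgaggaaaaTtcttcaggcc

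Over 210 coding bases from the same start, Sox17 and Sox18 were identical at 84.3% of positions, Sox7 and Sox17 at 82.4%, and Sox7 and Sox18 at 78.1%. Sox6 was the most distant of the 6, with 55.7% to 58.6% identity to the others. The stretches shown lie at chr14:63943894-63943953 on the plus strand (Sox7), chr1:4493140-4493199 on the minus strand (Sox17), chr2:181671222-181671281 on the minus strand (Sox18), chr13:28952782-28952841 on the minus strand (Sox4), chr11:112782903-112782962 on the plus strand (Sox9) and chr7:115489703-115489762 on the minus strand (Sox6). Each lies within a single coding exon.

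Among all 12 hearts the order of mean levels was Sox18 (72.5 ± 12.5 RPKM, SD, n = 12), Sox17 (42.0 ± 15.6), Sox7 (26.7 ± 8.99), Sox4 (22.8 ± 17.0), Sox9 (3.62 ± 2.17) and Sox6 (1.74 ± 0.511). Sox18 stood highest in 11 hearts and Sox17 in 1. Sox4 stood second in 3 hearts, WT TAC mice 7 and 9 and KI sham mouse 1. Neighbours in this order kept it in 11 of 12 hearts for Sox18 over Sox17, in 10 for Sox17 over Sox7, in 8 for Sox7 over Sox4, in 12 for Sox4 over Sox9 and in 11 for Sox9 over Sox6. Sox7 and Sox4 were therefore not ordered beyond their spread. Sox4 spanned 3.80 log2 units over the 12 hearts (472 to 7998 reads), the widest span of the 6 on this scale, and the next widest was that of Sox7 (1.77). Sox9 had the fewest reads in a single heart (149).

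**Figure D1:**
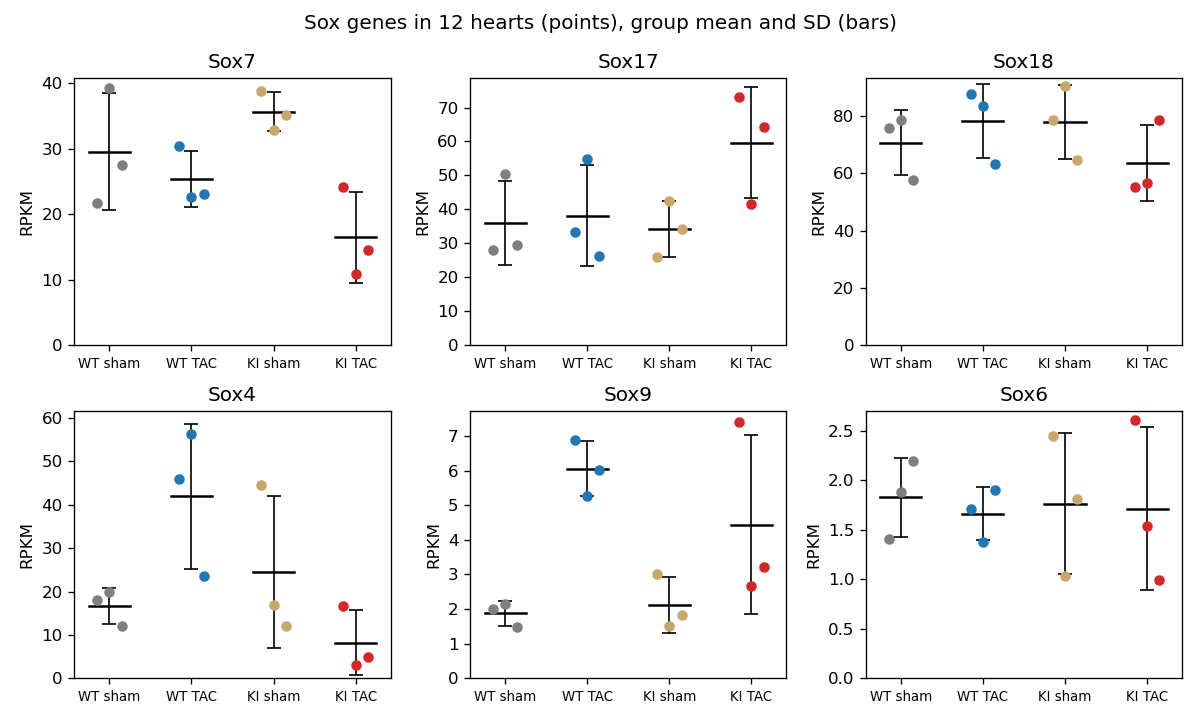
RPKM of the 6 Sox genes in each of 12 hearts (points), with the group mean (line) and SD (bars) of 3 hearts per group. Sox7 was lower in all KI TAC than in all KI sham hearts, Sox9 was higher in all WT TAC than in all WT sham hearts, and Sox4 was lower in all KI TAC than in all WT TAC hearts.

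Among the 6 genes, Sox9 rose with TAC in WT hearts. Of the 6 members, 1 passed the test (limma, Benjamini-Hochberg adjusted p under 0.05), against 11.6% of the 11240 genes tested, and 2 of the 6 (Sox4 and Sox9) did not overlap between the groups, against 35.1% of genes. The median log2 difference of the 6 was 0.10, and that of all genes was 0.04. These WT TAC hearts are also part of the contrast through which the genes were chosen.

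In KI hearts Sox7 fell after TAC. Sox4 also passed, but in only 7 of 20 alternatives and in the very KI TAC hearts whose low Sox4 led to its choice. With it 2 of 6 passed the test, beside 23.3% of all genes, and nothing is read from that count. Of the 6, 1 (Sox7) did not overlap between groups against 38.3% of genes. The median log2 difference of the 6 was -0.17, beside -0.10 for all genes. The KI TAC hearts likewise belong to the contrast that drew attention to the genes.

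For the Sox genes no difference between the genotypes was detectable in sham hearts. Between KI sham and WT sham hearts none of the 6 genes passed the test and none separated the groups, with log2 differences between -0.06 (Sox6) and 0.34 (Sox4) and adjusted p of 1.00 for each (limma). With 3 hearts a group this does not show that the levels were alike: leaving out 1 heart moved the difference from -0.18 to 0.72 for Sox4 and from 0.11 to 0.52 for Sox7. Over all genes, 2 of 11240 passed (0.0178%), 37 had an unadjusted p under 0.05, and 3.27% did not overlap. If no gene differed, a share of 0.05 of the genes would be expected under 0.05, far more than 37. The test may therefore be cautious in this comparison, so the lack of calls says little. The reason was not tested. This comparison shares no heart with the contrast through which the genes were chosen.

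**Figure D2:**
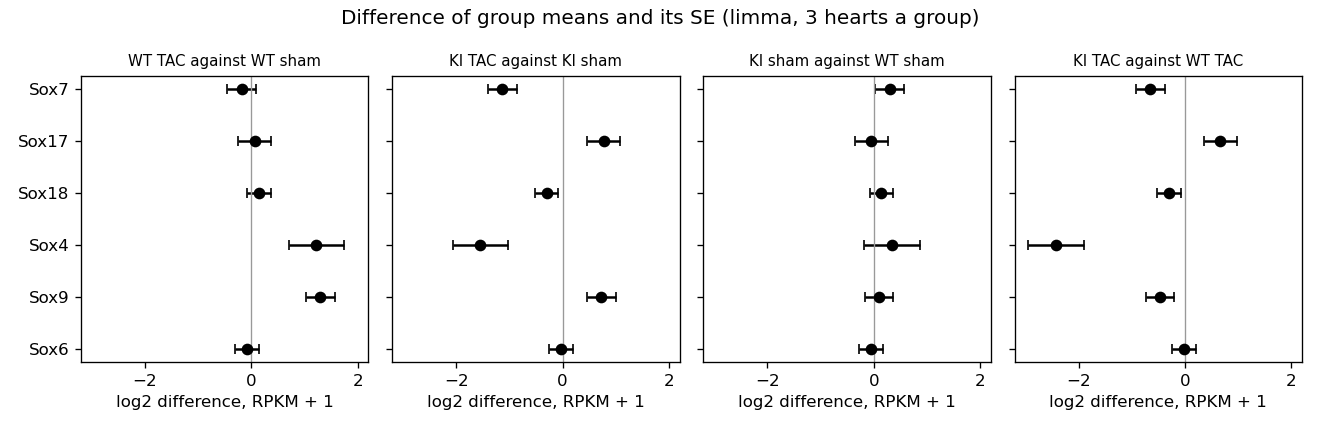
Difference of group means on the log2(RPKM + 1) scale (x axis) for each Sox gene (y axis), with its standard error from limma, in 4 comparisons of 3 hearts against 3. The values in KI sham against WT sham lie between -0.06 (Sox6) and 0.34 (Sox4), and Sox4 has the lowest value in KI TAC against WT TAC (-2.42). The last panel is a description, since it holds the contrast that chose the genes.

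Among the SOXF genes, Sox7 fell after TAC in KI hearts. It is an early endothelial factor that acts in the emergence of blood and vessel cells and in artery formation (chr14:63943673-63950732, plus strand). Sox7 stood at 38.8, 32.9 and 35.2 RPKM in KI sham hearts and at 24.2, 10.8 and 14.5 in KI TAC hearts. All KI TAC hearts were thus below all KI sham hearts. The log2 difference was -1.13 ± 0.27 (SE, adjusted p = 0.00856, limma), and Sox7 passed under each of 20 alternatives of the processing (adjusted p 0.00237 to 0.0414).

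In WT hearts Sox7 was at 21.7, 39.2 and 27.6 RPKM after sham surgery and at 30.3, 22.6 and 23.1 after TAC. These groups overlapped, with a log2 difference of -0.18 ± 0.27 (adjusted p = 0.692, limma). Between the TAC groups the value for Sox7 was -0.65 ± 0.27, and their hearts overlapped. It ranged from -0.95 (without KI TAC mouse 5) to -0.40 (without KI TAC mouse 6).

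Sox17, which specifies arterial endothelium and endoderm (chr1:4490931-4497354, minus strand), had its highest values in KI TAC hearts. There it reached 73.2, 41.7 and 64.2 RPKM, beside 26.0, 42.6 and 34.3 in KI sham hearts. One KI TAC heart lay within the sham range, so the groups overlapped. The log2 difference was 0.77 ± 0.31 and did not pass the test (adjusted p = 0.0869, limma), nor did it under any of 20 alternatives (adjusted p 0.0532 to 0.246). In WT hearts Sox17 was at 28.1, 50.3 and 29.7 RPKM after sham surgery and at 33.3, 54.9 and 26.2 after TAC, a log2 difference of 0.06 ± 0.31 (adjusted p = 0.921, limma).

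Sox18, a regulator of lymphatic vessel identity and vascular integrity (chr2:181669836-181671640, minus strand), was the steadiest SOXF gene. It stood at 75.7, 78.6 and 57.6 RPKM in WT sham, 87.5, 83.5 and 63.4 in WT TAC, 78.5, 90.5 and 64.6 in KI sham, and 55.3, 56.5 and 78.7 in KI TAC hearts. All groups overlapped. The log2 difference was 0.14 ± 0.22 in WT hearts (adjusted p = 0.704) and -0.30 ± 0.22 in KI hearts (adjusted p = 0.345, limma). The KI value had the opposite sign (0.06) after a trend with GC content was removed, an alternative chosen after the data were seen.

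Since the SOXF proteins bind like sequences, their balance within a heart was also examined. This measure was chosen after the values were seen. The ratio of Sox17 to Sox7 was 3.02, 3.85 and 4.44 in KI TAC hearts and 0.671, 1.29 and 0.973 in KI sham hearts, so the groups did not overlap. It was 1.29, 1.28 and 1.08 in WT sham and 1.10, 2.43 and 1.14 in WT TAC hearts. The mean log2 ratio was 1.98 higher after TAC in KI hearts (two-sided exact permutation p = 0.1) and 0.25 higher in WT hearts (exact permutation p = 0.8). With 3 hearts against 3, 0.1 is the smallest p this test can give, so it cannot pass 0.05.

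The ratio of Sox17 to Sox18 was also highest in KI TAC hearts. It was 1.32, 0.737 and 0.816 in KI TAC hearts, all above the KI sham hearts at 0.331, 0.471 and 0.531. The ratio of Sox18 to Sox7 ranged from 2.28 to 5.43 in KI TAC and from 1.83 to 2.75 in KI sham hearts, which overlapped. A ratio shows unequal change of a pair of genes, and does not tell which of them changed.

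**Figure D3:**
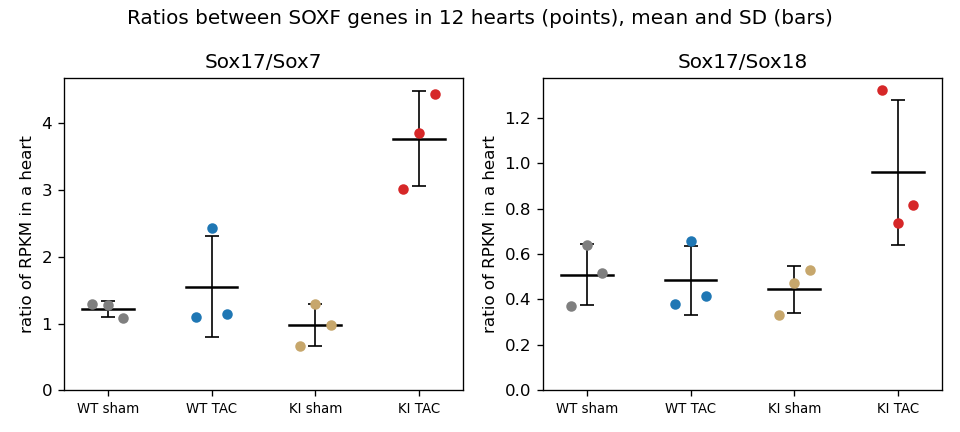
Ratio of RPKM values of 2 SOXF genes within each of 12 hearts (points), with the group mean (line) and SD (bars). The 3 KI TAC hearts lie at 3.02 to 4.44 for Sox17 over Sox7 and at 0.737 to 1.32 for Sox17 over Sox18, above all KI sham hearts.

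A list of 20 endothelial genes tied to SOXF factors was read beside them, 19 of which were tested. In WT hearts none of 19 passed in either direction after TAC, where 11.6% of all genes did. In KI hearts 2 of 19 fell, where 14.7% of all genes did, and none rose. The median log2 difference was -0.21 beside -0.10 for all genes. The genes that fell were Prox1 (-1.09 ± 0.31, adjusted p = 0.0238), the master regulator of lymphatic identity and a SOX18 target that cardiomyocytes also express, and Hey1 (-0.76 ± 0.18, adjusted p = 0.00942), a Notch effector of arterial endothelium (both limma). Prox1 was at 18.3, 6.76 and 11.4 RPKM in KI sham and at 2.57, 5.69 and 7.10 in KI TAC hearts, which overlapped. Hey1 was at 3.62, 3.94 and 3.95 RPKM in KI sham hearts and lower in every KI TAC heart, at 1.16, 2.59 and 1.98.

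Of the 8 endothelial markers, 1 rose in KI hearts, where 8.57% of all genes did. It was Esam (0.69 ± 0.19, adjusted p = 0.0195, limma), and the others did not pass the test. Among those, Pecam1 (0.50) and Erg (0.28) were higher in every KI TAC than in every KI sham heart, and Eng (-0.37) was lower. Over all genes 38.3% did not overlap, and the remaining endothelial markers overlapped. Of the 5 lymphatic markers 4 were in the table (Ccl21a was not) and 3 were tested. Of these, 1 rose, Lyve1 (1.04 ± 0.33, adjusted p = 0.0370, limma), and 1 fell, Prox1, where 8.57% of all genes rose and 14.7% fell. The summed lymphatic markers covered 24.3 to 33.4 RPKM in KI sham and 29.7 to 39.2 in KI TAC hearts, and the part of any cell type in the SOXF values was not tested.

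Sox4 had differences of opposite sign with TAC in the 2 genotypes, a pattern close to the one through which it was chosen. Sox4 is a single-exon gene (chr13:28948919-28953713, minus strand), whose product cooperates with TGF-beta and Wnt signalling in development and in tumours. It was at 18.1, 19.8 and 12.1 RPKM in WT sham hearts and at 45.8, 56.3 and 23.6 in WT TAC hearts. All WT TAC hearts were higher, yet the log2 difference of 1.22 ± 0.52 did not pass the test (adjusted p = 0.144, limma). It passed in 1 of 20 alternatives, the fit of WT hearts alone (adjusted p = 0.0442).

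In KI hearts Sox4 was at 44.6, 16.8 and 12.1 RPKM after sham surgery and at 16.7, 3.11 and 4.87 after TAC. One KI sham heart (mouse 1) stood far above the others, and the lowest sham heart lay below the highest TAC heart. The log2 difference was -1.54 ± 0.52 and passed narrowly (adjusted p = 0.0462, limma). It rests on the KI TAC hearts whose low Sox4 led to the choice of the gene, so it is no independent support. The call was kept in 7 of 20 alternatives (adjusted p 0.00815 to 0.183). Within KI hearts it was lost without KI sham mouse 1 (log2 difference -1.02, adjusted p = 0.183), KI sham mouse 2 (-1.70, 0.0697), KI TAC mouse 6 (-1.11, 0.182) or KI TAC mouse 7 (-1.36, 0.119). It was also lost without WT sham mouse 1, 2 or 3 or WT TAC mouse 7 (adjusted p 0.0546 to 0.0568). There the value stayed at -1.54 and the gene list was the same, while the shared spread and the p-values of other genes changed.

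Between the TAC groups, Sox4 was at 23.6 to 56.3 RPKM in WT and at 3.11 to 16.7 in KI hearts, without overlap. The difference of -2.42 ± 0.52 (log2, SE) is the value that led to the choice of the gene, and the response to TAC in KI minus that in WT hearts was -2.77 ± 0.74. Leaving out 1 heart at a time moved the difference between -3.04 and -1.99. Of the 6 genes 1, Sox4, did not overlap between the TAC groups, where 29.5% of all genes did not. Nothing is read from this count because the genes were chosen with this contrast. The other values between the TAC groups were 0.66 ± 0.31 for Sox17, -0.30 ± 0.22 for Sox18, -0.47 ± 0.27 for Sox9 and -0.01 ± 0.22 for Sox6. Single hearts moved these values too, from -0.83 (without KI TAC mouse 5) to -0.24 (without KI TAC mouse 6) for Sox9, from 0.43 (without WT TAC mouse 10) to 0.95 (without WT TAC mouse 9) for Sox17, and from -0.46 (without KI TAC mouse 7) to -0.21 (without KI TAC mouse 5) for Sox18.

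Sox12, the other SOXC gene in the table, is not one of the 6 but belongs to the same group as Sox4, and its HMG box is closer to that of Sox4 than the boxes of the other 5 members are. The 2 boxes were identical at 85.7% of 210 coding bases, and the start of the Sox12 box (chr2:152397516-152397575, minus strand) is shown with capitals at the same 26 positions for comparison.
Sox12: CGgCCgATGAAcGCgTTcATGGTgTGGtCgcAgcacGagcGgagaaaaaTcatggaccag

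Sox12 fell in KI hearts, from 36.4, 29.2 and 30.6 RPKM after sham surgery to 10.7, 6.35 and 10.5 after TAC, without overlap. The log2 difference was -1.73 ± 0.26 (adjusted p = 0.000539, limma). In WT hearts it was at 28.6, 23.1 and 23.1 RPKM after sham surgery and at 36.7, 31.9 and 17.7 after TAC (0.14 ± 0.26). The ratio of Sox4 to Sox12 overlapped between KI sham (0.395 to 1.23) and KI TAC hearts (0.464 to 1.57), and was higher in all WT TAC (1.25 to 1.76) than in all WT sham hearts (0.524 to 0.858). This ratio was chosen after the values were seen and holds the Sox4 values of the TAC hearts that led to the choice of the gene, so it is given as a description.

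Of 13 further Sox genes looked for, 5 were in the table and 3 were tested (Sox10, Sox12 and Sox13). In KI hearts 1 of 3 fell with TAC (Sox12), where 14.7% of all genes did, and in WT hearts none of 3 passed, where 11.6% did. Sox10, a Schwann cell and neural crest factor, was at 1.34 to 1.80 RPKM in WT sham, 1.87 to 3.14 in WT TAC, 1.23 to 3.12 in KI sham and 1.09 to 1.32 in KI TAC hearts. Sox5 and Sox30 stayed below 1 RPKM in every heart.

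The genes whose levels ran closest to Sox4 over the 12 hearts were Ier5l, Taf4, Cdk13, Irf2bpl and Plxnd1, with a root mean square difference of 0.53 to 0.55 log2 units after each gene was centred on its mean. Taf4, a subunit of the general transcription factor TFIID, ran from 32.0 to 127 RPKM in WT TAC and from 10.7 to 33.8 in KI TAC hearts. Ier5l was at 80.5, 67.5 and 21.5 RPKM in WT TAC and 21.2, 7.06 and 12.5 in KI TAC hearts. These genes were picked by their closeness to Sox4 in the same hearts. Their lower levels in KI TAC hearts follow from that choice and are no support.

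**Figure D4:**
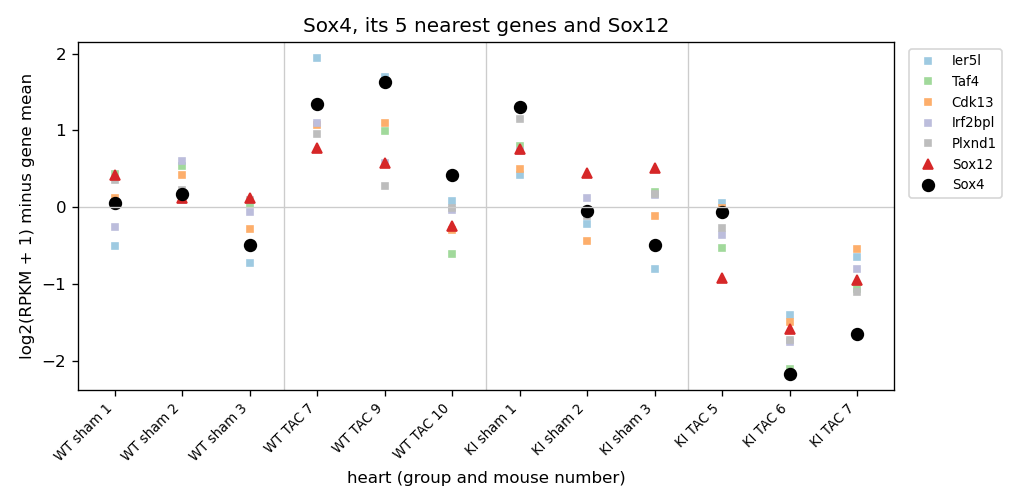
Level of Sox4 (black circles), its 5 nearest genes (squares) and Sox12 (red triangles) in each of 12 hearts, as log2(RPKM + 1) minus the mean of the gene. Sox4 is above its mean in all WT TAC hearts and below it in all KI TAC hearts, and Sox12 is below its mean in all KI TAC hearts.

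Genes reported as SOX4 targets gave little to set beside Sox4. Of 5 listed, 4 were tested. In WT hearts 1 of 4 rose with TAC, where 6.96% of all genes did. It was Tubb3, a neuronal tubulin (1.86 ± 0.48, adjusted p = 0.0235, limma), at 0.716, 0.407 and 0.372 RPKM in WT sham and 4.81, 1.07 and 12.2 in WT TAC hearts. All WT sham hearts were under 1 RPKM for Tubb3, which met the filter on low values mainly through TAC hearts, so this count is no support. In KI hearts none of 4 passed, where 23.3% of all genes did.

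TGF-beta and Wnt genes that act upstream of SOX4 and SOX9 were 15 in the list and 13 among the genes tested. After TAC 2 of 13 rose in WT hearts, where 6.96% of all genes did, and 2 of 13 in KI hearts, where 8.57% did, and none fell in either. Tgfb2, a TGF-beta ligand, rose in WT hearts (2.18 ± 0.27, adjusted p = 0.000374) and in KI hearts (1.33 ± 0.27, adjusted p = 0.00383, limma). It was at 1.35 to 1.84 RPKM in WT sham, 7.93 to 13.8 in WT TAC, 1.19 to 2.15 in KI sham and 3.47 to 9.54 in KI TAC hearts. Tgfbr1, a TGF-beta receptor, also rose in WT (0.74 ± 0.19, adjusted p = 0.0242) and KI hearts (1.05 ± 0.19, adjusted p = 0.00195, limma). The response in KI minus that in WT hearts was -0.85 for Tgfb2 (adjusted p = 0.330) and 0.31 for Tgfbr1 (adjusted p = 0.60, limma interaction), and neither passed.

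Sox9 rose after TAC in WT hearts (chr11:112782224-112787760, plus strand). It was at 2.0, 2.16 and 1.47 RPKM in WT sham and at 6.87, 5.28 and 6.03 in WT TAC hearts, without overlap. The log2 difference was 1.30 ± 0.27 (adjusted p = 0.00781, limma), and it passed under each of 20 alternatives (adjusted p 0.000992 to 0.0389). The pseudocount of 1 lowers this value for a gene at such a level: from the recovered reads the difference was 1.69.

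In KI hearts Sox9 was at 3.03, 1.51 and 1.83 RPKM after sham surgery and at 7.41, 2.67 and 3.23 after TAC. One KI TAC heart (mouse 5) reached the level of the WT TAC hearts, and the other two stayed near the highest sham heart. The log2 difference of 0.73 ± 0.27 did not pass the test (adjusted p = 0.0636, limma). It passed in 3 of 20 alternatives: under quantile normalization (0.82, adjusted p = 0.0488), without KI sham mouse 1 (0.93, 0.0390) and without KI TAC mouse 6 (0.96, 0.0324). Without KI TAC mouse 5 the value was 0.37.

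Cartilage matrix genes, the best known SOX9 targets, were mostly missing from the table. Of 14 listed, 5 were in the table and 1 was tested, Comp, a cartilage matrix glycoprotein, which fell in KI hearts (-0.61 ± 0.18, adjusted p = 0.0249, limma) from a mean of 0.823 to 0.180 RPKM. Comp reached 1 RPKM in only 3 hearts, none of them a KI TAC heart, and 14.7% of all genes fell, so this call is no support. In WT hearts its log2 difference was -0.31 and did not pass. The genes nearest to Sox9 over the 12 hearts were Sh3pxd2b, Lrrc32, Lpp, Farp1 and Runx1 (root mean square difference 0.20 to 0.24). Runx1, a transcription factor of blood and injured tissue, was at 0.200 to 0.292 RPKM in WT sham, 0.806 to 1.71 in WT TAC, 0.187 to 0.521 in KI sham and 0.562 to 2.24 in KI TAC hearts. It reached 1 RPKM only in TAC hearts and so passed the filter on low values through them. Its closeness to Sox9 in these hearts is also what it was picked for, so its levels are no support.

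Other cell type markers moved with TAC beside Sox9 and Sox4. In WT hearts 4 of 5 leukocyte markers tested rose (Cd68, Adgre1, Itgam and Lyz2), where 6.96% of all genes did, and their summed level over all 6 markers was 65.5 to 111 RPKM in sham and 134 to 194 in TAC hearts. In KI hearts 1 of these 5 rose (Itgam) and 1 fell (Csf1r), where 8.57% of all genes rose and 14.7% fell. The sum there was 71.1 to 96.3 RPKM in sham and 77.6 to 104 in TAC hearts. Of the 3 neutrophil markers in the table (Ly6g and Cxcr2 were not, and S100a8 and S100a9 were each at 0 in 1 heart), S100a9 and Csf3r rose in WT and all 3 in KI hearts. Of all genes 6.96% rose in WT and 8.57% in KI hearts. The neutrophil sums were 0.508 to 1.27 RPKM in WT sham, 3.69 to 9.87 in WT TAC, 0.395 to 0.505 in KI sham and 4.18 to 20.3 in KI TAC hearts. These 3 genes and Itgam were under 1 RPKM in every sham heart and passed the filter on low values through the TAC hearts, so their counts are no support.

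Stromal markers were read in the same way. No fibroblast marker of 7 passed in WT hearts, where 11.6% of all genes did, and their median was 0.58. In KI hearts 1 of 7 fell, where 14.7% of all genes did, with a median of -0.43. It was Lum, a collagen-binding proteoglycan (-1.14 ± 0.39, adjusted p = 0.0476, limma). In the WT TAC hearts the fibroblast sums, which include collagen genes, ran from 147 to 760 RPKM, and Sox9 ran from 5.28 to 6.87. A link between these was not tested. Among 6 mural markers Cspg4 rose in WT hearts (0.90) and Notch3 fell in KI hearts (-0.61), 1 of 6 in each, where 6.96% of all genes rose in WT and 14.7% fell in KI hearts. The mural sums were 197 to 214 RPKM in WT sham, 239 to 253 in WT TAC, 177 to 239 in KI sham and 169 to 214 in KI TAC hearts. No blood marker of 5 passed in either genotype, where 11.6% of all genes passed in WT and 23.3% in KI hearts. All 5 had negative log2 differences in both (medians -0.70 in WT and -0.38 in KI hearts). Their sums were 145 to 171 RPKM in WT sham, 74.8 to 114 in WT TAC, 134 to 244 in KI sham and 97.7 to 257 in KI TAC hearts, so that the WT groups did not overlap. Of the epicardial markers, Msln and Upk1b were not in the table and Upk3b was at 0 in 3 hearts. Of the Schwann markers, Sox10 was the only one tested. The part of these cell types in the Sox values was not tested.

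Sox6 passed in none of the 3 comparisons tested (chr7:115470872-116038796, minus strand). It was at 0.994 to 2.61 RPKM over the 12 hearts, with group means of 1.83 in WT sham, 1.67 in WT TAC, 1.76 in KI sham and 1.71 in KI TAC hearts. The log2 difference with TAC was -0.08 ± 0.22 in WT hearts (adjusted p = 0.848) and -0.04 ± 0.22 in KI hearts (adjusted p = 0.925, limma). The sign of these differences is not settled, since the KI value turned positive under other scalings.

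Of 10 slow-muscle genes tied to SOX6, 9 were tested. In WT hearts 2 rose and 2 fell with TAC, where 6.96% of all genes rose and 4.6% fell. In KI hearts 1 rose and 1 fell, where 8.57% of all genes rose and 14.7% fell. Myh7, the slow myosin heavy chain that marks the loaded heart, rose in WT hearts from 39.0, 145 and 42.6 to 195, 176 and 380 RPKM (1.90 ± 0.44, adjusted p = 0.0143, limma), and was at 26.5 to 33.5 RPKM in KI sham and 21.1 to 47.0 in KI TAC hearts. Myh7b, a related myosin gene, fell in both genotypes (-1.88 in WT and -1.75 in KI hearts), Tpm3, a tropomyosin, rose in both (0.62 and 0.87), and Atp2a2, the calcium pump of the sarcoplasmic reticulum, fell in WT hearts (-0.83). Among 6 cardiomyocyte markers, Myh6 fell in WT (-1.15) and Pln in KI hearts (-0.93), and the other 5 in each did not pass, where 4.6% of all genes fell in WT and 14.7% in KI hearts. Their summed levels were 12672 to 17158 RPKM in WT sham, 11409 to 21785 in WT TAC, 13743 to 16027 in KI sham and 13301 to 18842 in KI TAC hearts.

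For the remaining SOXF genes with a range over 1 log2 unit, the genes nearest to Sox7 were Phldb1, Apba3, Adgrl1, Cacna1g and Ints1 (root mean square difference 0.19 to 0.24), and those nearest to Sox17 were Chka, Trpv4, Sema6b, Thbd and Cdc42ep4 (0.19 to 0.23). Phldb1 was at 110 to 131 RPKM in KI sham and 42.3 to 81.3 in KI TAC hearts. Thbd, which encodes the endothelial anticoagulant receptor thrombomodulin, was at 35.2 to 38.8 RPKM in KI sham and 51.4 to 76.4 in KI TAC hearts. Genes picked by closeness to a member share its pattern by that choice, so these values are a description.

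Levels also moved with the GC content of the transcript, which was examined after the data were seen. In KI hearts the median log2 difference with TAC went from 0.04 in the decile of genes with the lowest GC content to -0.34 in the decile with the highest, and in WT hearts from 0.21 to -0.03. The KI TAC hearts were not alike in this: the median deviation from the gene's mean in the highest decile was -0.28 in mouse 5, -0.43 in mouse 6 and -0.01 in mouse 7. Sox4 (51.1% GC), Sox7 (51.0%), Sox9 (49.3%) and Sox17 (52.6%) lay in the middle deciles, Sox6 (46.1%) in a lower one, and Sox18 (60.9%) and Sox12 (59.9%) in the highest. With the trend of each heart removed, the log2 difference in KI hearts was -1.02 for Sox7 (adjusted p = 0.0297), -1.44 for Sox4 (adjusted p = 0.0912) and -1.40 for Sox12 (adjusted p = 0.00123), and that of Sox9 in WT hearts was 1.30 (adjusted p = 0.0155, limma).

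**Figure D5:**
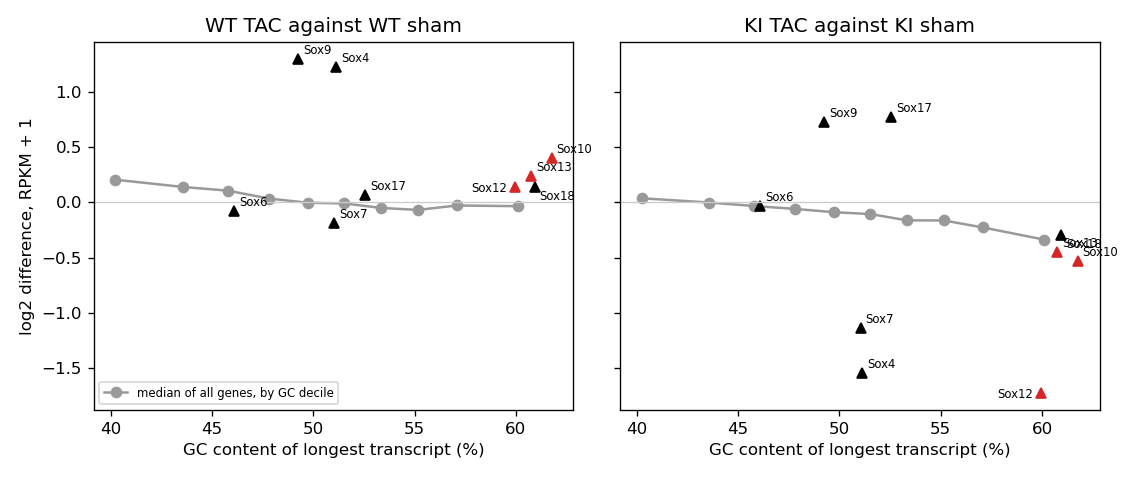
Log2 difference with TAC (y axis, log2 of RPKM + 1) against the GC content of the longest transcript in percent (x axis) in WT (left) and KI hearts (right). Grey circles are medians of all genes tested by decile of GC content, black triangles the 6 Sox genes and red triangles Sox10, Sox12 and Sox13; in KI hearts the grey line goes from 0.04 to -0.34.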

How the data were processed

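Poly(A) RNA of 12 hearts was sequenced. Reads were, per the submitters' processing notes, handled with Trimmomatic 0.39, HISAT2 2.2.1, HTSeq 0.6.1, edgeR 3.18.1 and limma 3.32.10 on GRCm38. The strand setting of the counting was not given in the sources used here. Sox4, Sox6 and Sox17 overlap antisense genes that are not in the table. The authors deposited RPKM values per gene, which whole reads were recovered from (95.2% to 96.9% of low values within 0.02 of a whole number).

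Here limma 3.58.1 (R 4.3.3) with a trend was fitted to log2(RPKM + 1) of all 12 hearts in 4 groups, over the 11240 genes that reached 1 RPKM in 3 hearts or more. P-values were two-sided and adjusted by Benjamini-Hochberg over all genes tested, with calls at 0.05. The count test the study names was not run, since the deposited values are RPKM, and the recovered reads were fitted with limma-voom as an alternative. The study calls its replicates biologically independent, and each heart has its own mouse number within its group. The script was tested on simulated data.

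The members and gene lists were chosen with earlier results of these data known. The genes named are all members, up to 5 genes called per list and comparison, and the 5 genes nearest to each member with a range over 1 log2 unit, passing over predicted genes. For marker lists the called or absent genes are named, and for endothelial markers also those whose KI groups did not overlap. GC content was that of the longest GENCODE M21 transcript. RefSeq protein sequences were not used here.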

Additional observations from a re-analysis of the deposited data

Results flagged for a closer look

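Among the 6 members and the 3 other Sox genes tested, 2 had TAC hearts that moved in opposite directions in the genotypes. In these, every WT TAC heart lay above, and every KI TAC heart below, the mean of its own sham hearts. The share of all genes with this pattern was not counted, so nothing is read from the count of 2. For Sox4 the WT TAC hearts were 0.51 to 1.73 log2 units above and the KI TAC hearts 0.31 to 2.42 below their sham means (KI values -2.42 to -0.31), and the response in KI minus that in WT hearts was -2.77. For Sox10 the WT TAC hearts were 0.13 to 0.66 above (KI values -0.62 to -0.47), and the response in KI minus that in WT hearts was -0.94. For Sox4 the difference was not tested, because the choice of the gene used the TAC hearts. For Sox10, which is not one of the 6, it did not pass (adjusted p = 0.194, limma interaction). Sox10 has a GC content of 61.8%, and with the GC trend removed its KI response was -0.15 (adjusted p = 0.671, limma) instead of -0.53. With 3 hearts a group, no search for single outlying hearts was made.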

How the results depend on the processing

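Most values kept their direction and their side of the threshold. With all hearts in, the number of Sox genes called in KI hearts was 1 instead of 2 (Sox7 alone) with no filter on low values, with median-ratio scaling, in the fit of KI hearts alone and with the GC trend removed, and 4 at an adjusted p under 0.1, where 32.3% of all genes passed. Under quantile normalization it stayed at 2, but Sox4 lost its call (adjusted p = 0.0724, limma) and Sox9 gained one (0.0488). In WT hearts the number was 2 instead of 1 in the fit of WT hearts alone. Leaving out 1 heart at a time gave 1 to 2 calls in KI hearts, where the other call was Sox4 or Sox9, and 1 in WT hearts. Limma-voom on recovered reads and the GC correction were chosen after the data were seen.

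Values near 0 changed sign. The KI response of Sox6 was 0.076 under quantile normalization and 0.082 under median-ratio scaling, and that of Sox18 was 0.064 with the GC trend removed. Leaving out 1 heart at a time, the WT response ranged from -0.19 to 0.011 for Sox6, from -0.38 to 0.037 for Sox7 and from -0.23 to 0.32 for Sox17, and the KI response of Sox6 from -0.26 to 0.16. KI sham minus WT sham ranged from -0.18 to 0.72 for Sox4, from -0.23 to 0.15 for Sox6, from -0.10 to 0.24 for Sox9, from -0.21 to 0.21 for Sox17 and from -0.00044 to 0.26 for Sox18. The cause was not tested. The median log2 difference of all genes was -0.10 in KI hearts and -0.12 between the TAC groups, and within 0.03 of 0 under median-ratio scaling, so a Sox gene at -0.10 in KI hearts moved with the median gene.

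Mouse numbers are shared by the sham groups, and the deviations of same-numbered hearts correlated at -0.22, -0.30 and 0.44. So few values, of mixed sign, cannot tell whether same-numbered hearts were paired. The TAC groups share a single mouse number, from which no pairing can be fitted. With the mouse number as a replicate block, Sox4 differed by 0.34 between the sham groups and 0 Sox genes were called. With 3 hearts a group, each value rests on few animals. Each of the 6 Sox genes held at least 149 reads in each heart.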
